A study of Mus musculus with 8 samples.

Results

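Voltage-gated calcium and sodium channels were represented on Agilent arrays of mouse hippocampal RNA by 30 of the 30140 genes named there, through 51 of 39429 non-control probes. Members were taken by name, from probes whose gene name in the scanner files is a Cacna1, Cacna2d, Cacnb or Scn subunit (Scn2a is listed there as Scn2a1). The set holds 10 calcium channel pore genes, 9 sodium channel pore genes, 4 alpha2delta genes, 4 calcium channel beta genes and 3 sodium channel beta genes. The study compared conditional knockout mice (CKO), of genotype Ctcf loxP/loxP with Camk2a-Cre, with controls (WT) of genotype Ctcf loxP/loxP without Cre. All mice were C57BL/6 adults that carried the floxed alleles and had gone through behavioural tests (open field, sensorimotor battery, water maze and social approach). Each sample was a pool of hippocampal RNA from 3 mice, with 3 pools per genotype. Both genotypes had a pool 1 of mixed sex (2 females, 1 male, 19 to 23 weeks old), a pool 2 of 3 females (18 to 19 weeks) and a pool 3 of 3 males (15 to 17 weeks). Pool 1 was hybridised on 2 arrays in each genotype, so that 8 arrays stand for 6 pools.

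Camk2a-Cre acts in excitatory forebrain neurons, so interneurons, glia, vessel cells and choroid plexus in the same tissue keep Ctcf. Only CKO mice carried Cre, and effects of the transgene cannot be told apart from those of the deletion. In RNA from whole tissue, fewer cells of a type and less RNA per cell cannot be told apart either. Ctcf, the deleted gene, was 0.83, 1.12 and 1.04 in WT pools 1, 2 and 3 and 0.18, 0.16 and 0.05 in the CKO pools, on the scale used throughout: log2 of the processed signal relative to the 75th percentile of its array. No CKO pool reached the lowest WT pool, and the difference was -0.87 (SE 0.13, n = 3 pools per genotype). In limma with Benjamini-Hochberg adjustment over 18334 genes the adjusted p for Ctcf was 0.142, and 0.0292 with the pool number as a block.

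A voltage-gated calcium or sodium channel is built around 1 large pore protein that senses the membrane voltage and opens. Sodium channel pores carry the upstroke of the action potential, and calcium channel pores turn depolarisation into calcium entry at dendrites, cell bodies and release sites. Auxiliary subunits do not conduct: alpha2delta and calcium channel beta subunits bring calcium channels to the membrane and tune their gating, and sodium channel beta subunits do the same for sodium channels and also act as adhesion molecules.

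Each value in what follows is read by a 60-base probe, and several results turn on where a probe sits. The sequences below, taken from the scanner files and given 5′ to 3′ with the first base of the probe on its transcript, are of the probe that is the only reading of Cacna1b, and of probes of Scn2a, Scn1a and Cacna1d that share their gene with another kept probe.
Cacna1b, base 5551: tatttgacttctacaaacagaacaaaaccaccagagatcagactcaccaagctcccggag
Scn2a, base 888: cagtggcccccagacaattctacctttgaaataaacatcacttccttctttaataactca
Scn1a, base 599: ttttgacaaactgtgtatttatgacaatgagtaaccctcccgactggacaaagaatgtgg
Scn1a, base 6044: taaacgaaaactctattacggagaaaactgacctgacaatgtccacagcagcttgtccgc
Cacna1d, base 6870: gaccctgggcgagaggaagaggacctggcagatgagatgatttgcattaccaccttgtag
Of the Cacnb4 probe only the stretch from base 1820 of the transcript is shown, because it holds a repeat of AAAC, 29 bases long and written in capitals.
Cacnb4, base 1820: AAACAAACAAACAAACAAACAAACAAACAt

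Of the 51 probes, 39 were kept because all arrays of WT, of CKO or of both flagged them as well above background. They read 25 of the 30 genes, each by its brightest kept probe. The 5 genes not read were Cacna1c, the main L-type pore of brain and heart, Cacna1f, the L-type pore of the retina, Scn7a, an atypical sodium channel, and the sensory neuron pores Scn9a and Scn10a. The probes of Cacna1f, Scn7a, Scn9a and Scn10a were well above background on none of the 8 arrays. The single Cacna1c probe passed on 0 of 4 WT arrays and 2 of 4 CKO arrays, so the 2 CKO readings give no level for the genotype.

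None of the 25 measured channel genes was called as differing between genotypes in the test over all genes. In limma, 0 of 25 had an adjusted p under 0.05, against 8 of 18334 genes (0.0436%), and the smallest adjusted p among them was 0.844, for Scn2a. With the pool number as a block the count was again 0 of 25, against 103 genes (0.562%), and the smallest adjusted p was 0.393, for Cacna1i. At an unadjusted p under 0.05, 2 of 25 passed (Cacna1a and Scn2a), against 5.48% of all genes, and 3 of 25 with the block, against 8.33%. With 3 pools a side, the smallest two-sided p of an exact permutation test on a single gene is 0.1.

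The estimates were small in both directions. Among the 25 genes 13 lay higher and 12 lower in CKO pools, with a median difference of 0.01, against 9052 of 18334 genes higher (49.4%) and a median of -0.0032 over all genes. Among the 23 channel genes above background on all arrays, which leaves out Cacna1b and Cacna2d4, 12 lay higher and 11 lower. With arrays scaled to their median in place of the 75th percentile the split of the 25 genes was 9 higher and 16 lower. The median size of a difference, without regard to sign, was 0.16 for the channel genes and 0.13 for all genes. For 22 of the 25 genes the 95% interval of the difference lay within a 2-fold change in either direction, and for 15 it lay within a 1.5-fold change. The 3 whose interval reached past 2-fold were Cacna1b, Cacnb4 and Scn4a.

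**Figure D1:**
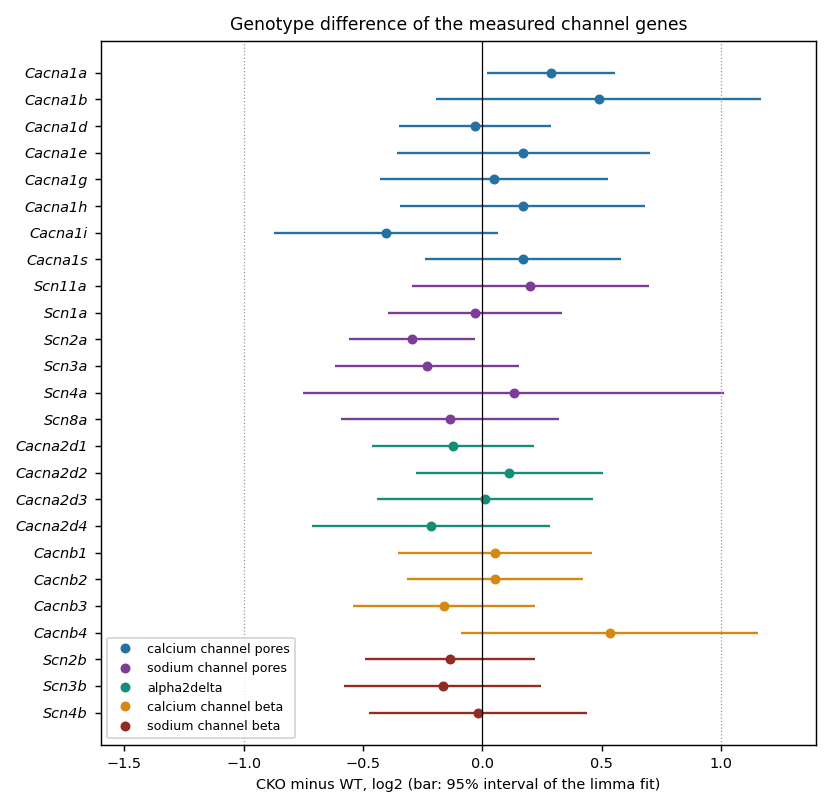
Difference between CKO and WT (log2, x axis) for each of the 25 measured channel genes, with points for the estimate and bars for the 95% interval of the limma fit over 3 pools per genotype, coloured by subunit class. Dotted lines mark a 2-fold change, and the bars of Cacna1a and Scn2a alone leave out 0 before adjustment over genes.

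The 3 CKO pools did not overlap the 3 WT pools for 3 of the 25 genes (12%), Cacna1a and Cacnb4 lying higher and Scn2a lower. Over all genes 11.4% did not overlap, 5.71% higher and 5.64% lower, so the share among the channels was close to that of all genes.

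**Figure D2:**
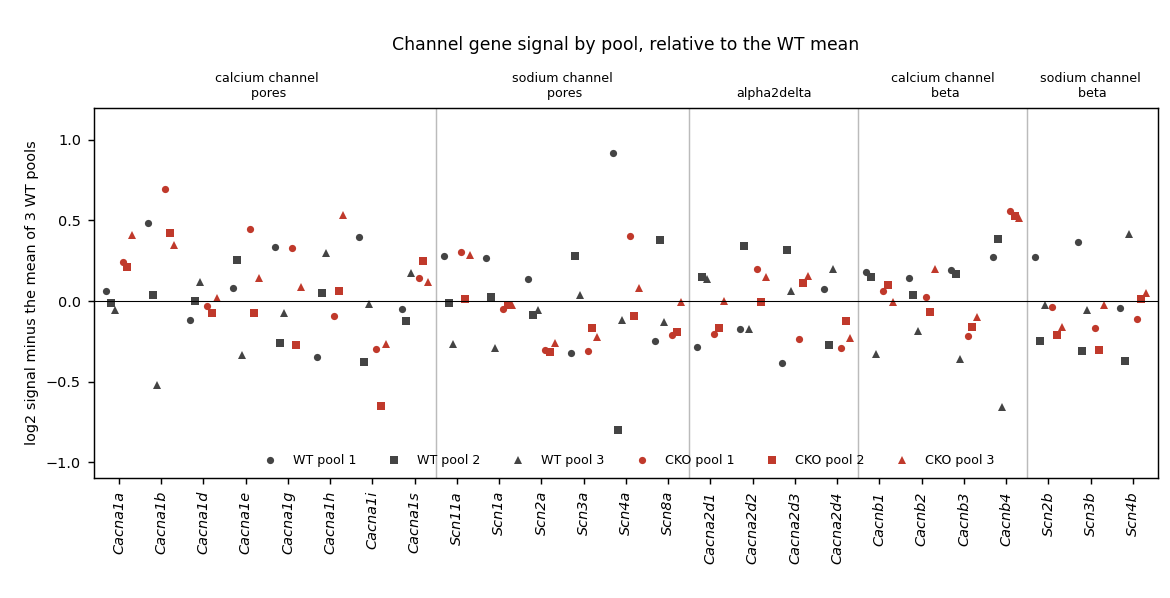
Signal of each measured channel gene in the 6 pools, as log2 signal minus the mean of the 3 WT pools of that gene (y axis), with WT pools in grey, CKO pools in red and the pool number given by the marker. WT points spread more widely than CKO points for most genes, up to a WT SD of 0.86 for Scn4a against 0.25 in CKO.

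Of the calcium channel pores 6 of 8 measured genes lay higher in CKO pools, with a median difference of 0.17 and none called. One of the 6, Cacna1b, was kept through its CKO arrays alone; without it 5 of 7 lay higher. Cacna1a forms the P/Q-type channel that drives transmitter release at most central synapses. Its signal was 1.33, 1.26 and 1.21 in WT pools 1 to 3 and 1.51, 1.48 and 1.68 in CKO pools 1 to 3. Every CKO pool lay above every WT pool, by 0.29 in the mean (SE 0.12), a 1.22-fold higher level, with an adjusted p of 0.864 in limma. A second Cacna1a probe, 223 bases further along the transcript, differed by 0.09 (SE 0.16), and its pools overlapped.

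Cacna1b forms the N-type channel, the other main calcium source for transmitter release. Its probe passed the background flag on 0 of 4 WT arrays and 4 of 4 CKO arrays. The readings were -4.72, -5.16 and -5.72 in WT pools and -4.50, -4.78 and -4.85 in CKO pools. WT pool 1 lay inside the CKO range and the other WT pools below it. The filter favours, though it does not force, a higher CKO reading of a probe that enters through CKO alone, so its direction supports nothing. The WT readings give only an upper bound, and the mean CKO reading lay 1.22-fold (0.28 in log2) above it. This fold does not show a higher level in CKO (adjusted p = 0.999 in limma). The second array of WT pool 1 read -4.37, above the first array of CKO pool 1 (-4.71) and below its second (-4.30). The difference of the measured readings was 0.49, but 0.21 with normexp background, which is less than 0.28, and 0.23 without WT pool 3.

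Cacna1i, a T-type pore that opens near the resting potential and is prominent in thalamic neurons, was the calcium channel gene that lay lowest in CKO pools. Its level was 2.77, 2.00 and 2.36 in WT pools and 2.08, 1.73 and 2.11 in CKO pools. Each CKO pool lay below the WT pool of the same number, but CKO pools 1 and 3 lay above WT pool 2. The mean difference was -0.40 (SE 0.21), a 1.32-fold higher level in WT, with an adjusted p of 0.978 in limma and 0.393 with the pool block. Without WT pool 1, which had the highest reading, the difference was -0.20, and without the second array of that pool it was -0.25.

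The 5 other measured calcium channel pores differed by -0.03 to 0.17, and the pools of all 5 overlapped. Cacna1d, an L-type pore of neurons and endocrine cells, differed by -0.03 (SE 0.14). The R-type pore Cacna1e (0.17, SE 0.23) and the T-type pores Cacna1g (0.05, SE 0.21) and Cacna1h (0.17, SE 0.22) all had intervals spanning 0. Cacna1s, the L-type pore of skeletal muscle, was read at -2.91 to -2.61 in WT and -2.66 to -2.53 in CKO pools, a difference of 0.17 (SE 0.18). A second Cacna1s probe was above background on 0 of 4 WT and 3 of 4 CKO arrays and was not kept.

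Sodium channel pores showed no common direction: 2 of the 6 measured genes lay higher and 4 lower, with a median difference of -0.08. Scn2a, Scn3a and Scn1a lie in one gene cluster that also holds Scn7a and Scn9a. Scn2a is the sodium channel of excitatory neurons, found in unmyelinated axons and the axon initial segment. Its signal was 2.65, 2.43 and 2.46 in WT pools and 2.21, 2.20 and 2.25 in CKO pools. The highest CKO pool lay below the lowest WT pool. The difference was -0.29 (SE 0.12), which made the WT level 1.23-fold higher, with an adjusted p of 0.844 in limma. The difference ran from -0.34 to -0.22 when each pool was left out in turn.

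This separation was seen with 1 of the 3 kept Scn2a probes, the one that starts at base 8614. The probe at base 6688, printed on each array as 10 spots, read 1.12, 1.06 and 0.11 in WT pools and 0.88, 0.76 and 0.81 in CKO pools. Here CKO pools lay below WT pools 1 and 2 and above WT pool 3, and the mean difference was 0.06. The 10 spots had an SD of 0.05 to 0.08 on every array but that of WT pool 2 (0.24). The spots of WT pool 3 lay between -0.02 and 0.21. This spread is technical and within an array, and says nothing of the spread between mice. At base 888 the difference was -0.0038 (SE 0.24).

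Scn3a, a sodium channel most abundant before birth and lower in adult rodent brain, read 0.15, 0.75 and 0.51 in WT pools and 0.16, 0.30 and 0.25 in CKO pools. WT pool 1 was the lowest of all pools and the other WT pools were the highest. The difference was -0.23 (SE 0.17, adjusted p = 0.999 in limma), and it was -0.05 within the second slide and -0.30 within the first. Scn11a, known from pain-sensing neurons, read -2.99, -3.28 and -3.53 in WT pools and -2.96, -3.26 and -2.98 in CKO pools. Its pools overlapped, with a difference of 0.20 (SE 0.22), or 0.07 without WT pool 3 and 0.34 without WT pool 1.

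Scn1a, the channel on which fast-spiking interneurons depend, differed by -0.03 (SE 0.16), and its 3 CKO pools lay between 0.41 and 0.43. Scn8a, the channel of nodes of Ranvier and mature axon initial segments, differed by -0.14 (SE 0.20). The muscle pore Scn4a (0.13, SE 0.39) had the widest standard error of the set, and it differed by -0.31 within the second slide.

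Auxiliary subunits, 11 of 11 of which were measured, lay on both sides, 5 higher and 6 lower, with a median difference of -0.02. The alpha2delta genes stayed between -0.22 and 0.11. Cacna2d4, best known from retina, read -3.95, -4.30 and -3.83 in WT pools and -4.32, -4.15 and -4.26 in CKO pools. The groups overlapped and the difference was -0.22 (SE 0.22), with -0.12 without WT pool 3 and -0.35 without WT pool 2. The Cacna2d4 probe passed on 4 of 4 WT and 3 of 4 CKO arrays. It was thus kept through WT alone, so its direction supports nothing. Cacna2d1, the main target of gabapentin, differed by -0.12 (SE 0.15), Cacna2d2 by 0.11 (SE 0.17) and Cacna2d3 by 0.01 (SE 0.20).

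Of the calcium channel beta genes 3 lay higher and 1 lower. Cacnb4, a beta subunit of cerebellar and forebrain neurons that partners P/Q-type pores, read -1.67, -1.55 and -2.60 in WT pools and -1.38, -1.41 and -1.42 in CKO pools. The CKO pools were close together above all WT pools, and WT pool 3 lay far below the other WT pools. The difference was 0.53 (SE 0.27), a 1.45-fold higher level, with an adjusted p of 0.978 in limma. Without WT pool 3 it was 0.20, and it was 0.16 within the first slide and 0.78 within the second.

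The Cacnb4 reading rests on the probe with the AAAC repeat printed above. Counting AAAC repeats on both strands, 13 of the 23648 kept probes held a run of 20 bases or more. Their differences ran from -0.30 to 0.53 with a median of 0.02, and Cacnb4 was the highest. The other beta genes, Cacnb1 (0.05, SE 0.18), Cacnb2 (0.05, SE 0.16) and Cacnb3 (-0.16, SE 0.17), had overlapping pools. WT pool 3 was the lowest of the 6 pools for all 4 beta genes.

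Sodium channel beta subunits lay lower in CKO pools for 3 of the 3 genes, with a median difference of -0.13 and none called, though Scn4b was at 0.017 with normexp background and 0.014 with the deposited value table. Scn3b, a subunit of brain sodium channels that alters their inactivation, read 2.41, 1.74 and 1.99 in WT pools and 1.88, 1.74 and 2.02 in CKO pools. WT pool 1 was the highest and the other pools of both genotypes overlapped. The difference was -0.17 (SE 0.18, adjusted p = 0.999 in limma). Scn2b, which is linked to the pore protein by a disulfide bond, differed by -0.13 (SE 0.16), and Scn4b, known from resurgent sodium current, by -0.02 (SE 0.20). With a single pool left out, each of the 3 genes gave differences on both sides of 0.

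Channel genes varied more among WT than among CKO pools. The WT SD exceeded the CKO SD in 23 of 25 genes (92.0%), including 11 of 11 auxiliary genes, against 81.4% of all genes. The median SD over the channel genes was 0.30 in WT and 0.11 in CKO pools, and over all genes 0.27 and 0.13. WT pool 3 was the lowest of the 6 pools for 10 of 25 channel genes (40.0%), against 17.3% of all genes. These shares are descriptions, as the genes of a pool share its arrays.

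Where a gene had several kept probes, they often differed in sign. Of the 11 channel genes with 2 or more kept probes, 9 (81.8%) had probes on both sides of 0, against 42.8% of the 4333 genes with several kept probes on the array. Cacna1a, with both probes higher, and Scn1a, with both lower (-0.06 at base 599 and -0.03 at base 6044), were the exceptions. The probes of Scn8a read 0.14 at base 263 and -0.14 at base 10634. The probes of Cacna1d read 0.03 at base 6870 and -0.03 at base 8356, and those of Cacna1h -0.06 and 0.17. The shares were not matched for the number of kept probes per gene, which was 3 for Scn2a and 4 for Scn3a. Several of these differences were smaller than their SE, such as both of Cacna1d (SE 0.20 and 0.14).

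The widest gap between probes was that of Cacna2d1. The probe at base 3635 read -1.64, -0.02 and -3.60 in WT pools and -0.15, -0.69 and -0.40 in CKO pools, a difference of 1.34 (SE 0.73) with WT pools on both sides of the CKO pools. At base 7294, on another transcript of the gene, it read 1.94, 2.37 and 2.36 in WT and 2.02, 2.06 and 2.22 in CKO pools. Scn3a had 4 kept probes, the first numbered on another transcript, whose differences were -0.01, 0.18, -0.23 and -0.34. The last was dim, at -4.30 in WT and -4.64 in CKO, and passed the background flag on 3 of 4 WT arrays. The CKO pools of Scn3a read -0.71, -0.72 and -0.72 at base 6735, where WT pools read -1.06, -0.17 and -1.45. The remaining pairs were 0.11 and -0.21 for Cacna2d2, 0.05 and -0.16 for Cacna1g, and 0.01 and -0.40 for Cacna1i. The second Cacna2d2 probe was also dim (-4.02 in WT, -4.23 in CKO) and passed on 3 of 4 WT arrays.

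**Figure D3:**
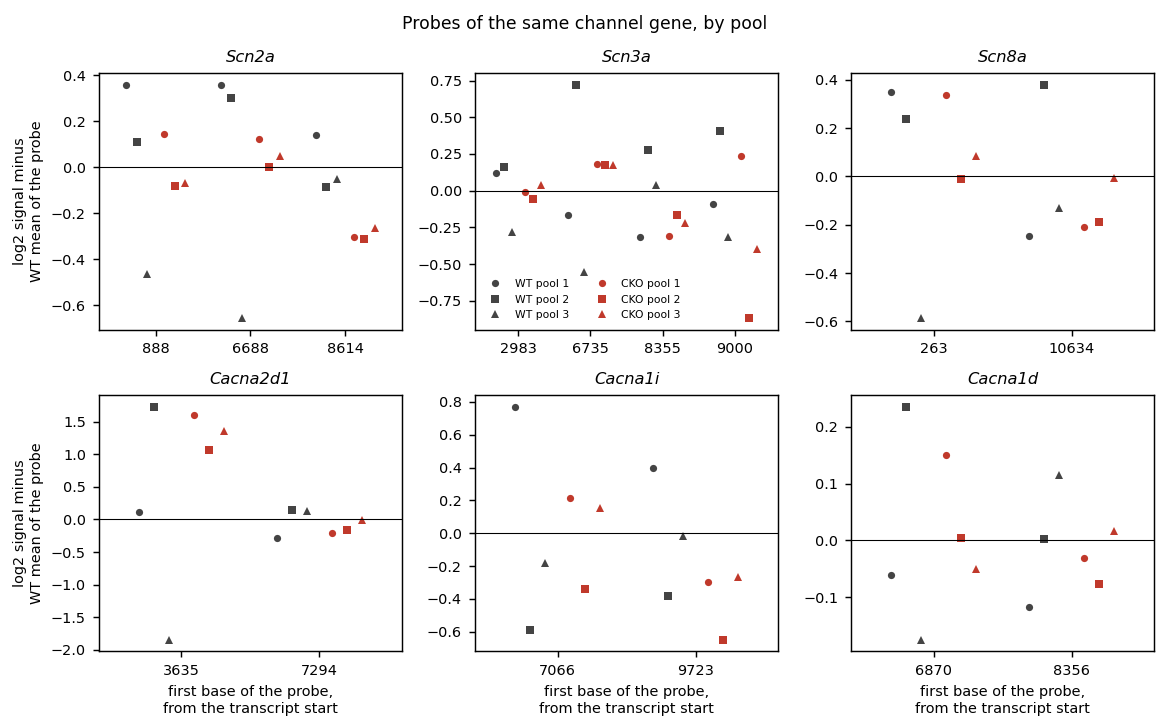
Kept probes of 6 channel genes by the number of their first base (x axis, probes evenly spaced), as log2 signal minus the WT mean of that probe in each of the 6 pools. The y scale differs between panels. The leftmost probes of Scn3a and Cacna2d1 are numbered on another transcript than the other probes of their gene, so their order is not established. WT pool 3 (grey triangles) is the lowest pool at the leftmost probe of Scn2a, Scn3a, Scn8a, Cacna2d1 and Cacna1d. The spread at that probe is widest for Cacna2d1, from -3.60 to -0.02 in signal.

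Position along the transcript and WT pool 3 moved together over the whole array. Across 2104 RefSeq transcripts with kept probes at least 500 bases apart, the signal of the upstream minus the downstream probe, centred on the mean of the 6 pools, had a median of -0.33 in WT pool 3, against -0.04 to 0.20 in the other pools. Among the 9 channel transcripts with several kept probes, WT pool 3 had the lowest such value in 8. Of the 7 with probes at least 500 bases apart it was lowest in 6, against 57.5% of the transcripts on the array, and the exception was Cacna1i. The part of this shift in the differences of Cacnb4 and Cacna1b, which each have 1 kept probe, was not tested beyond leaving out the pool.

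Repeat arrays of the same RNA, made for pool 1 alone in each genotype, show how far each reading moved between 2 arrays. For the 25 probes that read the genes, the second minus the first array of WT pool 1 ran from -0.87 to 1.68, and 12 of 25 moved by more than 0.5. For CKO pool 1 the range was -0.54 to 1.06, and 3 of 25 moved by more than 0.5. Scn4a moved most in either genotype (1.68 in WT, 1.06 in CKO), and Cacna2d3 moved furthest down (-0.87 and -0.54).

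In size, the repeat difference exceeded the difference between genotypes for 22 of 25 genes in WT and 13 of 25 in CKO. It did not for the genes whose pools did not overlap: the repeat differences in WT and CKO were 0.02 and 0.06 for Cacna1a, -0.16 and 0.04 for Cacnb4, and 0.11 and -0.03 for Scn2a. Those genes were picked by pool values that average these same arrays, so their small repeat differences are no separate support. The second arrays of pool 1 were the dimmest, with a 75th percentile of the processed signal of 2112 in WT and 2883 in CKO, against 3949 or more on the other arrays. Over the 39 kept channel probes, 33 moved the same way in both genotypes. The move went with base composition: Pearson's r with the share of G and C bases, which ran from 21.7% to 73.3%, was 0.61 in WT and 0.62 in CKO (Spearman's rho 0.46 and 0.50), over probes that share the same 4 arrays. Over all 23648 kept probes r was 0.54 and 0.52.

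**Figure D4:**
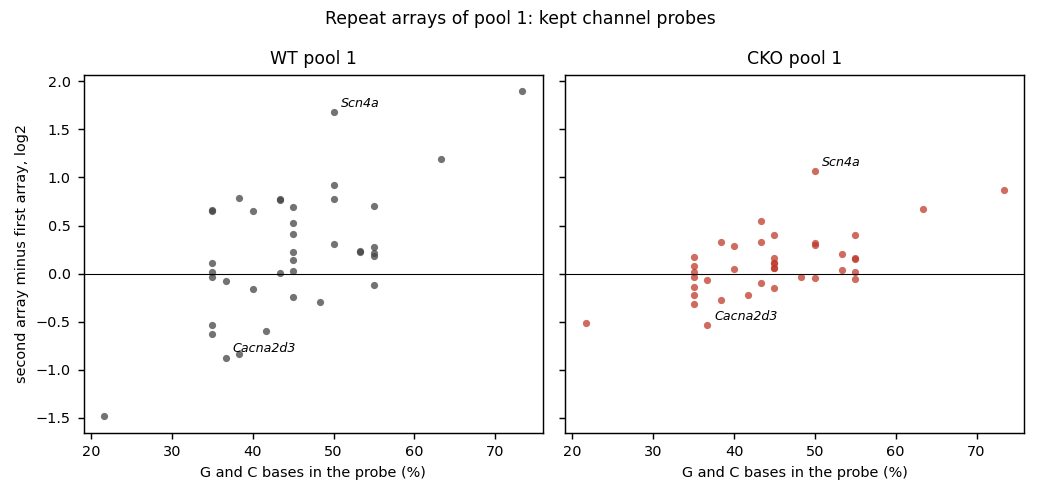
Second minus first array of pool 1 (log2, y axis) against the share of G and C bases of the probe (percent, x axis) for the 39 kept channel probes, in WT (left) and CKO (right). Points rise to the right in both panels, with Scn4a at 1.68 in WT and Cacna2d3 below 0.

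Genes that act on these channels were read from lists of known partners, and 0 of 42 measured partner genes were called in limma without the pool block (0.0436% of all genes were) or with it (0.562%). An unadjusted p under 0.05 was found for 5 of the 42 (11.9%), against 5.48% of all genes. The RGK GTPases, small G proteins that bind calcium channel beta subunits and suppress calcium current, lay higher in CKO for the 3 genes above background on all arrays, with a median difference of 0.78. Gem, which is also induced by neuronal activity, read -2.59, -2.76 and -2.43 in WT pools and -0.78, -2.21 and -1.40 in CKO pools. The lowest CKO pool lay above the highest WT pool. The difference was 1.13 (SE 0.33), with an adjusted p of 0.576 in limma and 0.0767 with the block. Rem2, the RGK protein of neurons, read -1.12, -1.14 and -1.39 in WT pools and -0.23, -0.73 and -0.35 in CKO pools, again without overlap. Its difference was 0.78 (SE 0.18), with an adjusted p of 0.301 in limma and 0.104 with the block. Rrad lay higher by 0.74 (SE 0.35) with overlapping pools, and by 0.40 without CKO pool 1. Rem1 was kept through its CKO arrays alone, with 1 of 4 WT arrays above background, so its direction supports nothing; it differed by 0.20 (SE 0.24), by 0.020 with normexp background and by 0.037 without CKO pool 1.

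The axon initial segment list, proteins that cluster sodium channels where action potentials start, had 2 of 6 genes higher and a median of -0.09. Nfasc, the neurofascin adhesion molecule of initial segments and nodes, read 1.64, 1.31 and 1.07 in WT and 1.88, 1.78 and 1.97 in CKO pools, a difference of 0.54 (SE 0.16, adjusted p = 0.579 in limma) without overlap. Ank3, which encodes the ankyrin-G scaffold, differed by 0.36 (SE 0.23) and Ank2 by -0.19 (SE 0.13). Sptbn4 lay lower without overlap (-0.17, SE 0.12, adjusted p = 0.999 in limma). Of the FGF homologous factors, which bind sodium channel tails, 2 of 4 lay lower, with a median of -0.01. Fgf12 read 2.42, 2.06 and 2.27 in WT and 1.93, 1.88 and 2.01 in CKO pools, all CKO pools below (difference -0.31, SE 0.13, adjusted p = 0.896 in limma).

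The Cacng list, kin of the muscle channel gamma subunit that in brain mostly accompany AMPA receptors, had 4 of 7 genes higher and a median of 0.02. Cacng6 lay higher without overlap (0.57, SE 0.23, adjusted p = 0.879 in limma), and Cacng7 (-0.22) and Cacng3 (0.25) overlapped. Among proteins that tether calcium channels at release sites 4 of 7 lay higher, with a median of 0.14, and Rims3 (-0.51), Rimbp2 (0.58) and Erc2 (-0.21) all overlapped. Of the calmodulin and channel regulator list 6 of 8 lay higher, with a median of 0.05, led by Cabp1 (0.27, without overlap), Stac2 (0.21) and Calm3 (0.14). The sodium leak channel complex (2 of 3 higher, Unc79 -0.19, Unc80 0.08, Nalcn 0.03) and the other cation channels (2 of 3 higher, Hvcn1 0.48, Tpcn1 -0.05, Catsper2 0.05) held 3 measured genes each. Pools did not overlap for 2 of 4 RGK genes and 2 of 6 initial segment genes. The count was 1 of 4 for FGF homologous factors, 1 of 7 for Cacng genes and 1 of 8 for the regulators. It was 0 in the release site, sodium leak and other cation channel lists, and 11.4% of all genes did not overlap.

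**Figure D5:**
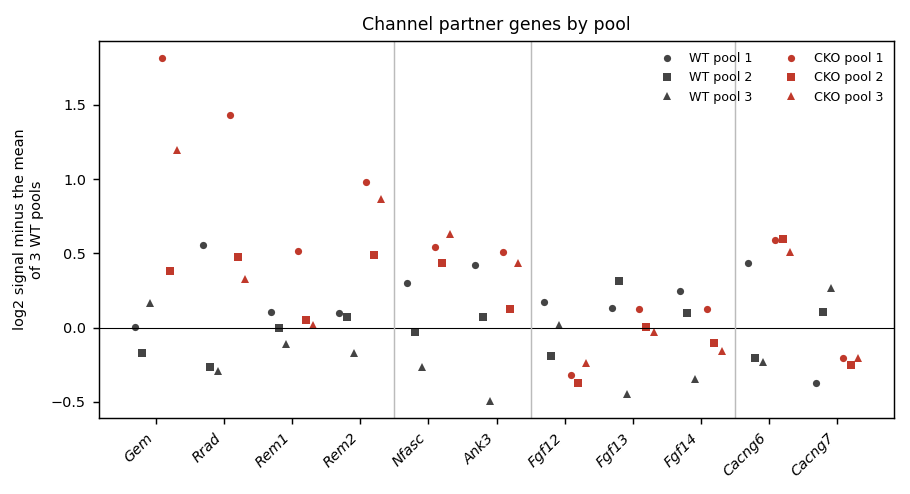
Signal of 11 partner genes in the 6 pools, as log2 signal minus the WT mean of the gene (y axis); vertical lines part the RGK GTPases, axon initial segment genes, FGF homologous factors and Cacng genes. The CKO points all lie above the WT points for Gem, Rem2, Nfasc and Cacng6 and below them for Fgf12. Of the 6 axon initial segment genes the plot shows the 2 that lay higher. Those not shown include Sptbn4, whose CKO pools all lay below the WT pools. Over all genes 11.4% did not overlap in either direction.

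Cell type marker lists are described here with no test of a list, and the value of a list is the mean over its genes of log2 signal minus the WT mean, per pool. Hippocampal neuron markers were read for dentate granule (5 of 7 genes), CA1 (6 of 6) and CA3 (4 of 5). Dentate granule neuron markers lay lower in 5 of 5 genes, between -0.11 and 0.07 in WT pools and between -0.59 and -0.47 in CKO pools. CA1 pyramidal markers lay lower in 5 of 6 genes (WT -0.08 to 0.06, CKO -0.34 to -0.14) and pan-neuronal markers in 4 of 5 (WT -0.06 to 0.09, CKO -0.23 to -0.10). Interneuron markers (WT -0.10 to 0.08, CKO -0.06 to 0.05) overlapped, as did those of forebrain excitatory neurons (WT -0.19 to 0.21, CKO 0.05 to 0.21). CA3 pyramidal, astrocyte, microglia, endothelial and oligodendrocyte precursor markers had median differences between -0.03 and 0.10. Oligodendrocyte markers lay higher in 6 of 6 genes (WT -0.09 to 0.05, CKO 0.15 to 0.34) and choroid plexus markers in 7 of 7 with overlapping pools (WT -1.02 to 0.68, CKO 0.57 to 0.96). None of these genes passed in the test without the block, and with it C1ql2 (dentate granule), Wfs1 (CA1) and Gfap (astrocyte) did. Their part in the differences of Scn2a, Nfasc and the other channel genes was not tested.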

How the data were processed

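Total RNA from 6 hippocampal pools was labelled with Cy5 and measured on 8 Agilent arrays. Per the submitters' processing notes the images were read with Agilent Feature Extraction 11.5. The deposited processed signal is an intensity, background-subtracted and detrended within each array and not normalized between arrays, per the file headers. A value table deposited by the authors, of linear intensities, was used as an alternative; its scaling between arrays and the reason for its empty spots are not given in the sources used here.

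The share of spots flagged as well above background was 59.2% to 66.0% per array, and 0 spots were saturated. Each genotype had 3 pools, and what limits the precision was not tested. For the same pools, the count of genes called also changed with the arrays used and their weights, as given below. Outlier spots were dropped, spots of a probe and both arrays of pool 1 were averaged, and log2 values were set relative to the 75th percentile of each array. Kept probes were well above background on every array of a genotype, and each of 18334 genes was read by its brightest kept probe. Names came from RefSeq accessions or symbols of GRCm38.p6; the files use mm9, so no coordinates are given. Genotypes were compared two-sided with limma 3.58.1 (lmFit, eBayes with trend) in R 4.3.3 and Benjamini-Hochberg adjustment, threshold 0.05. For a probe below background in 1 genotype, the fold is a bound. Each array of that genotype then counts with the probe's signal or the dimmest signal flagged as above background, whichever is higher. The test was also run on simulated data, with noise drawn separately for each gene. It called 39 of 100 genes changed 2-fold and 93 of 100 changed 4-fold, with 5 false calls. With the pool number as a block these counts were 6, 71 and 2. The simulation held no effects shared by pools or slides, so these counts may not hold for these arrays.

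Full pool values are given for channel genes whose pools did not overlap or that passed. They are also given for the 3 largest differences of each pore class and of the auxiliary subunits. At most 3 genes of each partner list are named by unadjusted p. Rem1 and Sptbn4 were added after their values were seen. Members and lists were chosen with earlier results of these data known. Some channel genes that match by name are not reported here and are left out of the channel counts.

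Pools with one number match in sex and age across genotypes, per the labels. Their deviations from the genotype means correlated across genes at 0.55, 0.33 and 0.13 for pools 1, 2 and 3, so the pool number was also fitted as a block. Pools of unlike number correlated at -0.48 to 0.12, so the value of pool 3 is close to the highest of these. Leaving out the second arrays, the correlations of pools 1, 2 and 3 were 0.09, 0.08 and 0.12. The arrays of pool 2 shared slide 1 with the first arrays of pool 1, and the others were on slide 2. The labels name the pools as biological replicates.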

Additional observations from a re-analysis of the deposited data

How the results depend on the processing

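No channel gene was called under any of the 26 alternatives, in 648 comparisons of a gene with its main value, and the smallest adjusted p was 0.0623 (limma with array weights, Cacnb4). The median difference of the channel genes ran from -0.044 to 0.061, and moved by less than the spread between pools. The count of genes called over the array was 8; it was 5 with quantile normalization, normexp background, probes above background on all arrays or the mean of kept probes, 3 with the value table and 0 within slide 2. It was 125 with the first array of each pool, 108 without the second array of WT pool 1, 260 with array weights, and 0 to 21 when each pool was left out (0 without WT pool 3 or CKO pool 3, 21 without WT pool 1).

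With the replicate block the count was 103, 69 with quantile normalization as well, 56 without probes holding GAA repeats, and 220 over pools 1 and 2 only, an alternative added after seeing the data; no channel gene was called in these fits.

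Cacna1a, Cacnb4 and Scn2a, named by pools that did not overlap, kept their sign in every alternative that gave them a value, but not their size. So did Cacna1b, Cacna1i, Scn3a, Scn11a, Cacna2d4, Cacna1e and Cacna1s. Some alternatives keep the main difference, so no sign could change there. These were the fits without a dim-probe filter, with probes above background on all arrays, and without a trend. The others were each kept probe fitted alone, with the brightest read, and the replicate block with or without GAA-repeat probes. Other kept probes lay on the other side of 0 for Scn2a (0.06, base 6688), Scn3a (0.18, base 6735) and Cacna1i (0.01, base 7066). For Cacna1b and Cacna2d4 the kept sign supports nothing, as each was kept through 1 genotype alone. Neither had a value with probes above background on all arrays. When each pool was left out the differences ran from 0.0060 (without WT pool 3) to 0.30 for Cacna1e, 0.068 to 0.34 for Scn11a, -0.35 to -0.12 for Cacna2d4, 0.23 to 0.73 for Cacna1b, -0.59 to -0.20 for Cacna1i, -0.39 to -0.092 for Scn3a, 0.11 to 0.26 for Cacna1s and 0.20 to 0.73 for Cacnb4. Differences of other channel genes changed sign as follows, and the cause was not tested. With median scaling Cacna2d3 was -0.044, Cacnb1 -0.0015, Cacnb2 -0.0011 and Cacna1g -0.0052. With normexp Cacna2d3 was -0.024, Cacnb1 -0.010 and Scn4b 0.017. In the value table Cacna2d3 was -0.041, Cacnb1 -0.069, Cacnb2 -0.045 and Scn4b 0.014. With the mean of probes Cacna2d1 was 0.61, Cacna2d2 -0.050, Cacna1d 0.0022, Cacna1g -0.058 and Scn8a 0.00029. Within slide 1 Cacna2d2 was -0.0066, Cacna2d3 -0.11, Cacnb1 -0.075, Cacnb2 -0.093 and Scn4b 0.22. Within slide 2 Cacna2d1 was 0.070, Cacna1d 0.017, Cacna1g -0.033, Scn4a -0.31 and Scn8a 0.14. With the first array of each pool Cacna2d3 was -0.045, Scn4b 0.027 and Scn1a 0.012. Without the second array of WT pool 1 Cacna2d3 was -0.13, Scn4b 0.029 and Scn1a 0.039. With array weights Cacna2d3 was -0.072, Cacnb3 0.071, Cacna1h -0.030 and Scn1a 0.17. With the kept probe nearest the transcript end, also added after seeing the data, Cacna2d2 was -0.21 and Cacna1g -0.16. In the block over pools 1 and 2 Cacna2d3 was -0.029, Cacnb1 -0.081, Cacnb2 -0.11, Cacna1d 0.0036, Cacna1g -0.0090 and Scn4b 0.16.

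When each pool was left out, ranges that crossed 0 were -0.18 to 0.17 for Cacna2d3, -0.11 to 0.14 for Cacnb1, -0.039 to 0.13 for Cacnb2, -0.089 to 0.027 for Cacna1d, -0.091 to 0.22 for Cacna1g, -0.014 to 0.32 for Cacna1h, -0.26 to 0.0028 for Scn2b, -0.32 to 0.017 for Scn3b, -0.20 to 0.19 for Scn4b, -0.18 to 0.10 for Scn1a, -0.27 to 0.59 for Scn4a and -0.26 to 0.053 for Scn8a. Among the partner genes Gem passed with the block over pools 1 and 2 (adjusted p = 0.0191), and Rem2 (0.0313) and Nfasc (0.0205) with limma array weights, out of 26 alternatives each.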

Other observations

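Cacna1c itself was not read, but the arrays carry a probe named D930026N18Rik, which the RefSeq gene table lists as an older name of Cacna1c. That probe is no member by name. It was well above background on all 4 WT and 4 CKO arrays, and read 0.01, 0.70 and 0.79 in WT pools and 0.20, 0.40 and 0.53 in CKO pools. The groups overlapped, with a difference of -0.12 (SE 0.22, adjusted p = 0.999 in limma). Which part of the gene it reads was not examined.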
